A study of Mus musculus with 9 samples.

Results

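Apolipoproteins are the protein part of lipoproteins, the particles that carry cholesterol and triglycerides in blood. The 8 genes described here are 3 of the Apoe neighbourhood that are known from macrophages, Apoe, Apoc1 and Apoc2, and 5 that are known chiefly from liver or intestine, Apoa1, Apoa2, Apoa4, Apob and Apoh. They were taken by gene symbol from a table of 28998 genes, and all 8 were found, each in 1 row. The set was chosen by measured values of these same libraries: the FPKM of Apoa4, which differed between the JHU083 replicates, and the FPKM of Apoe beside the liver-type genes. The levels of Apoa4 and the ratio of Apoe to the liver-type genes are therefore given library by library, as a description and without a test, while each of the other 7 genes was tested between groups.

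The 9 libraries came from wild-type (WT) bone marrow monocytes of c57 mice, grown with GM-CSF for 7 days into macrophages (BMDMs). Those labelled WGFT17 (3 libraries) and JHU083 (3 libraries) were then exposed to a drug for 36 h, and 3 further libraries are labelled Control. JHU083 releases the glutamine antagonist DON inside the body, while WGFT17 is a code name, written T17 in the series title and JA in the descriptions. The labels give no dose, and they state neither what Control cells received nor whether replicates were separate cultures or animals, so p-values measure the spread between these libraries. A GM-CSF culture of marrow also holds dendritic cells and neutrophils besides macrophages.

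In macrophages, apoE takes up cholesterol that the transporters ABCA1 and ABCG1 export, and the liver then clears the particle through lipoprotein receptors. Apoe and its neighbours on mouse chromosome 7 are targets of the nuclear receptor LXR, which senses oxidised cholesterol. Apoa1 and Apoa2 encode the main proteins of HDL, Apoa4 a protein of intestinal lipoproteins that the mouse liver also secretes, Apob the large structural protein of LDL and VLDL, and Apoh the phospholipid-binding beta-2-glycoprotein I. Hepatocytes express all 5 of these genes; macrophages are not a known main source of them.

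The promoters of Apoe, Apoa4 and Apoa2 are shown because Apoe stands for the macrophage-type genes, while the ratio of Apoa4 to Apoa2 separated the libraries described below. Each runs from 250 bases before to 50 bases after a transcript start in RefSeq (GRCm38.p6), and 7 of the 8 members had such an entry. Capitals mark a match to any of 4 motifs, searched on both strands. The motifs were the TATA box TATAAA, the HNF1 site GTTAAT, the HNF4 site CAAAGTCC and the GC box GGGCGG. For Apoe (3 listed starts) and Apoa2 (2 listed starts), the window at the start of the annotated gene is shown.
Apoe, minus strand, chr7:19699139-19699438: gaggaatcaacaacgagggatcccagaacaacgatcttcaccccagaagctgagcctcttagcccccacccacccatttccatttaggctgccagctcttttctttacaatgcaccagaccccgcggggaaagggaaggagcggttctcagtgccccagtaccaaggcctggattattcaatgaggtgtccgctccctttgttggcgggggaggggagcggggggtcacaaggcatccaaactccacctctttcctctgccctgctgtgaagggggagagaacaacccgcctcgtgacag
Apoa4, plus strand, chr9:46240594-46240893: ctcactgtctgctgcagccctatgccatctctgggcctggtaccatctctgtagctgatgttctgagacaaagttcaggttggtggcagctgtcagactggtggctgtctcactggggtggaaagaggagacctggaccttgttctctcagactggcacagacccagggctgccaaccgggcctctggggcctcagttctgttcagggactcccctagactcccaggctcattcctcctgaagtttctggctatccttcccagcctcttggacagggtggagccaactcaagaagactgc
Apoa2, plus strand, chr1:171224804-171225103: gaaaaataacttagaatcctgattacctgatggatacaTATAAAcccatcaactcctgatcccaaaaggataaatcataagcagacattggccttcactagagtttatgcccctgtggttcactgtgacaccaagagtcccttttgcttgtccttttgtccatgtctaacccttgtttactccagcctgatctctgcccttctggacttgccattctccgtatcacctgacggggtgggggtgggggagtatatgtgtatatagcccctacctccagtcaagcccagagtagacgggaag
A match was found in Apoa2, with TATAAA at -212 relative to the start, and there was no match in the windows of Apoe and Apoa4, so no match overlapped another. The other windows of Apoe held 2 matches to TATAAA in 1 case and GTTAAT at -172 in the other. Among the first-listed windows of 27025 genes, TATAAA was present in 14.2%, GTTAAT in 7.2%, CAAAGTCC in 1.44% and GGGCGG in 35.9%. A match describes letters and not a binding site.

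The deposited expected counts summed to 56624220 to 69112134 per library. Genes with a mean of at least 1 FPKM (fragments scaled to transcript length and library depth) were tested, 11798 in all, and all 8 apolipoprotein genes passed that filter. Of the 16 macrophage markers, all were above 0 in every library. Their summed CPM (counts scaled to library depth) were 24700 to 27100 in WGFT17, 25800 to 27400 in JHU083 and 24800 to 26600 in Control. The most abundant was Lyz2, with a mean of 8889 FPKM, and single markers moved. By edgeR at an adjusted p under 0.05, 5 were higher and 6 lower in WGFT17 against Control, where 28.0% and 30.0% of all tested genes were. Mrc1 fell by 1.03 on the log2 scale there and C1qa by 0.93. In JHU083 against Control 1 was higher and 3 lower, where 11.5% and 12.5% of all tested genes were. The JHU083 replicates differed among themselves. Summed over 20 heart muscle genes, CPM were 2.85 to 3.67 in WGFT17, 256, 8.74 and 409 in JHU083 replicates 1, 2 and 3, and 325 to 379 in Control. Summed over the 13 of 14 photoreceptor genes in the table, CPM were 3.79 to 4.44 in WGFT17, 5.74, 5.50 and 42.8 in the JHU083 replicates and 37.8 to 46.1 in Control. In the photoreceptor genes JHU083 replicate 3 was like Control, and in the heart genes replicates 1 and 3 were. The part of these transcripts in the results below was not tested, and values are given with and without a library where a call depends on it. In bulk RNA, fewer cells of a type and less RNA per cell cannot be told apart.

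Apoe (chromosome 7, 19696109 to 19699188, minus strand, GRCm38) was among the most abundant transcripts of these cells. It had 5935, 6548 and 5785 FPKM in WGFT17, 8075, 8065 and 5070 FPKM in JHU083 and 4832, 5074 and 5430 FPKM in Control. JHU083 replicates 1 and 2 were higher than all other libraries, and JHU083 replicate 3 lay within the Control range. Among all genes, its rank by FPKM was between 2 and 5 in every library. Its share of all expected counts was 1.32% to 1.49% in WGFT17, 1.22% to 1.84% in JHU083 and 1.17% to 1.32% in Control.

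No change of Apoe was detected in any of the 3 comparisons when all 9 libraries were fitted with edgeR's quasi-likelihood test, TMM scaling and Benjamini-Hochberg adjustment over all tested genes, but this depended on the fit. JHU083 averaged 7070 ± 1732 FPKM against 5112 ± 301 in Control (SD, n = 3 each), a log2 change of 0.37 (SE 0.14, adjusted p = 0.0855). WGFT17 averaged 6089 ± 404 FPKM, a log2 change of 0.14 against Control (SE 0.14, adjusted p = 0.414), although its lowest library lay above the highest Control library. The difference of WGFT17 from JHU083 was -0.23 on the log2 scale (adjusted p = 0.228). Leaving out JHU083 replicate 3 brought all 3 past the threshold, with log2 changes of 0.56 in JHU083 against Control (edgeR adjusted p = 0.000125), 0.14 in WGFT17 against Control (adjusted p = 0.0359) and -0.41 in WGFT17 against JHU083 (adjusted p = 0.000159). The library left out belongs to neither group of the second comparison, whose log2 change was the same with and without it. With all libraries kept, Apoe was also called in JHU083 against Control when library totals alone were used for scaling (log2 0.40, edgeR adjusted p = 0.0464), and in WGFT17 against Control when the 6 libraries of these groups were fitted alone (log2 0.14, adjusted p = 0.038). No other scaling, filter, tool or left-out library tried led to a call of Apoe. Over all alternatives, those just named included, adjusted p was 0.000125 to 0.246 for JHU083 against Control. It was 0.0359 to 0.695 for WGFT17 against Control and 0.000159 to 0.56 for WGFT17 against JHU083.

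**Figure D1:**
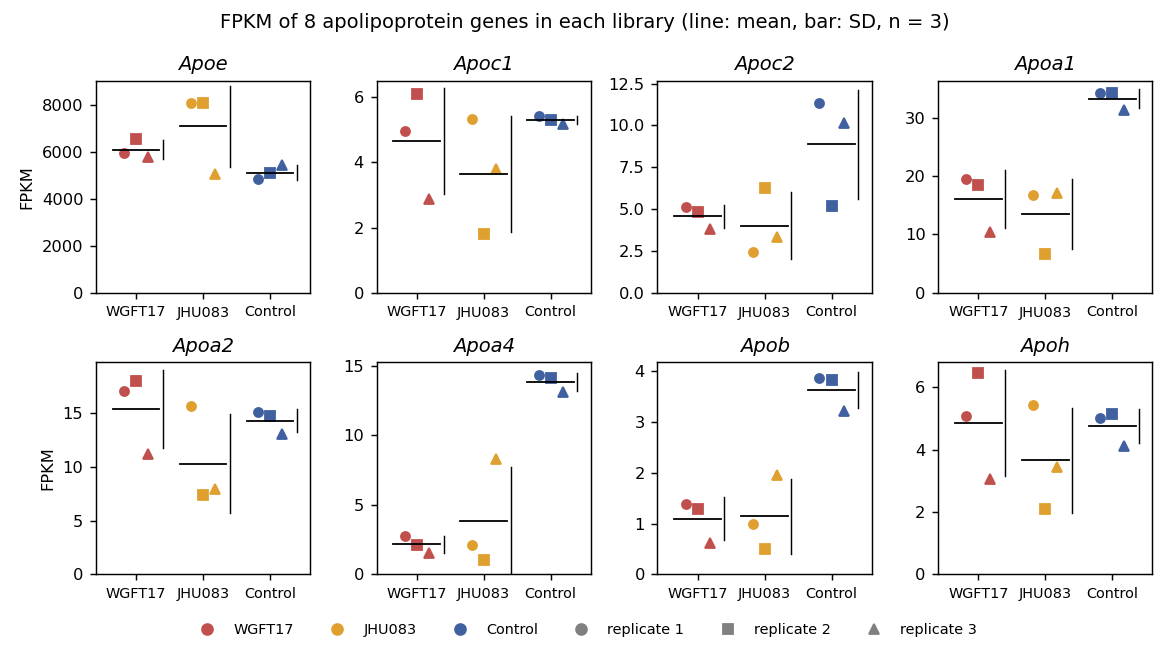
FPKM of the 8 genes in each of the 9 libraries, with group on the x axis, 1 point per library, a line at the mean and a bar for the SD (n = 3 per group; the bar of Apoa4 in JHU083 is cut at 0). Apoe lies between 4832 and 8075 FPKM, every other gene below 35 FPKM, and in Apoa4 JHU083 replicate 3 (8.31 FPKM) lies between the other JHU083 libraries and Control.

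The neighbours Apoc1 and Apoc2 were far below Apoe. Over the 9 libraries, the mean FPKM of Apoe was 1340 times that of Apoc1 and 1050 times that of Apoc2. Apoc1 encodes a small apolipoprotein that inhibits lipoprotein uptake and lies at 19689481 to 19692660 on chromosome 7. It had 4.97, 6.09 and 2.89 FPKM in WGFT17, 5.34, 1.81 and 3.79 FPKM in JHU083 and 5.41, 5.30 and 5.18 FPKM in Control. The 3 Control libraries lay close together, while WGFT17 replicates 1 and 3 and JHU083 replicates 2 and 3 were lower than all of them. No change of Apoc1 was detected in JHU083 against Control (log2 -0.63, SE 0.35, edgeR adjusted p = 0.216), in WGFT17 against Control (log2 -0.29, SE 0.35, adjusted p = 0.49) or between the drugs (log2 0.34, SE 0.35, adjusted p = 0.472). The order of the libraries in Apoc1 was nearer to that of the liver-type gene Apoh than to that of Apoe: over the 9 libraries, Pearson's r of log2(FPKM + 0.1) was 0.96 with Apoh and -0.38 with Apoe. These r values describe libraries that fall into 3 groups and carry no test. In this respect the data went against the grouping of Apoc1 with Apoe. The same held for Apoc2, with r of -0.42 with Apoe and of -0.03 (Apoh) to 0.52 (Apob) with the liver-type genes. The Apoc2 values carry a limit given below, since reads can also be given to an overlapping gene.

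Apoc2 encodes the cofactor of lipoprotein lipase and lies at 19671579 to 19677941 on chromosome 7. It had 5.10, 4.82 and 3.79 FPKM in WGFT17, 2.45, 6.26 and 3.33 FPKM in JHU083 and 11.3, 5.18 and 10.1 FPKM in Control. All WGFT17 libraries were below the lowest Control library, while JHU083 replicate 2 lay above it. With edgeR, Apoc2 fell by 1.23 on the log2 scale in JHU083 against Control (SE 0.35, adjusted p = 0.028) and by 1.07 in WGFT17 against Control (SE 0.35, adjusted p = 0.0221). Between the drugs the log2 difference was 0.17 (adjusted p = 0.731). Both calls against Control were lost under several alternatives, with adjusted p of 0.00107 to 0.0943 for JHU083 and 0.00224 to 0.0893 for WGFT17 over those planned. Leaving out any of Control replicate 1, Control replicate 3, JHU083 replicate 1 or JHU083 replicate 3 ended the JHU083 call, and leaving out any of Control replicate 1, Control replicate 3 or WGFT17 replicate 3 ended the WGFT17 call.

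Much of the spread of Apoc2 within groups went with a second gene on the same strand. Gm44805, a predicted gene that lies at 19671584 to 19681423 and joins exons of Apoc2 to the first exon of Apoc4, shares 646 of the 813 exonic bases of Apoc2 (79.5%) in GENCODE M21. Reads in the shared exons can be given to either gene. Of the counts given to both, Gm44805 received 2.59% in WGFT17 replicate 1 and none in WGFT17 replicates 2 and 3, 67.2%, 3.03% and 60.1% in JHU083 and 11.9%, 61.2% and 10.1% in Control. The split thus differed between replicates of 1 group, and Apoc2 was lowest where the share of Gm44805 was highest in both JHU083 and Control. Added together, the counts came to 4.54, 4.17 and 3.30 CPM in WGFT17, 6.54, 5.61 and 7.66 CPM in JHU083 and 11.9, 12.2 and 10.4 CPM in Control. The sums did not overlap between any of the groups, and they lay lowest in WGFT17 and highest in Control.

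Fitted as 1 gene, an alternative added after the data were seen, Apoc2 and Gm44805 differed in every comparison. The log2 change was -0.84 in JHU083 against Control (SE 0.15, edgeR adjusted p = 0.00388), which is 0.56-fold, and -1.54 in WGFT17 against Control (SE 0.16, adjusted p = 7.38e-06). WGFT17 was lower than JHU083 by this measure, with a log2 change of -0.70 (SE 0.15, adjusted p = 0.00313), where Apoc2 alone gave 0.17. With each library left out in turn, the summed change stayed between -0.94 and -0.74 for JHU083 against Control, between -1.64 and -1.42 for WGFT17 against Control and between -0.80 and -0.58 for WGFT17 against JHU083, and the highest adjusted p was 0.0228. The mean of the sum was 4 ± 0.638 CPM in WGFT17, 6.6 ± 1.03 CPM in JHU083 and 11.5 ± 0.964 CPM in Control (SD, n = 3 each).

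**Figure D2:**
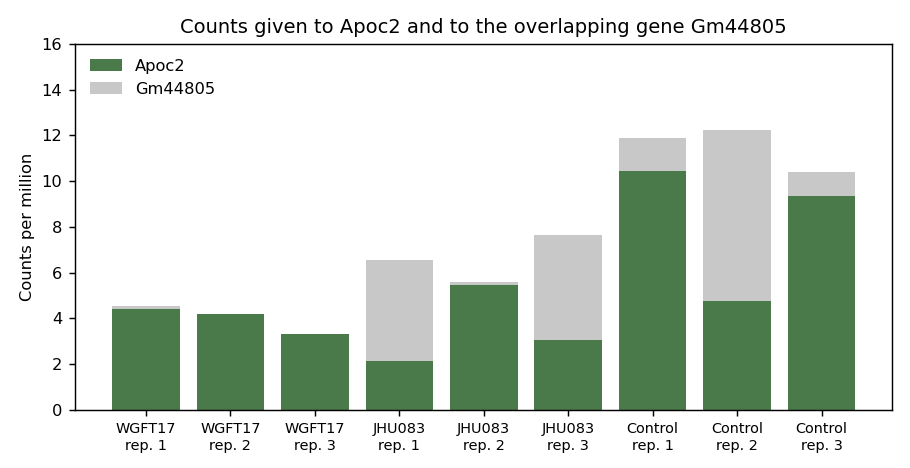
CPM given to Apoc2 (green) and to the overlapping gene Gm44805 (grey, stacked on top) in each of the 9 libraries. The stacked height is 3.30 to 4.54 CPM in WGFT17, 5.61 to 7.66 CPM in JHU083 and 10.4 to 12.2 CPM in Control, while the green part alone varies within JHU083 and Control.

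Of the liver-type genes, Apoa1 and Apob were lower in both drug groups than in Control. Apoa1 (chromosome 9, 46228580 to 46230466) had 19.5, 18.4 and 10.4 FPKM in WGFT17, 16.7, 6.66 and 17.2 FPKM in JHU083 and 34.2, 34.1 and 31.3 FPKM in Control. No drug-treated library reached the lowest Control library, and WGFT17 replicate 3 and JHU083 replicate 2 were the lowest of their groups. Apoa1 fell by 1.39 on the log2 scale in JHU083 against Control (SE 0.31, edgeR adjusted p = 0.0103) and by 1.15 in WGFT17 against Control (SE 0.31, adjusted p = 0.00812).

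Apob (chromosome 12, 7977648 to 8016835) had 1.39, 1.28 and 0.61 FPKM in WGFT17, 0.99, 0.50 and 1.95 FPKM in JHU083 and 3.86, 3.82 and 3.22 FPKM in Control. Here too the drug-treated libraries were all below Control, and JHU083 replicate 3 was the nearest to it. Apob fell by 1.75 on the log2 scale in JHU083 against Control (SE 0.41, edgeR adjusted p = 0.0121) and by 1.84 in WGFT17 against Control (SE 0.41, adjusted p = 0.00276). Between WGFT17 and JHU083 no difference was detected for Apoa1 (log2 0.24, adjusted p = 0.572) or Apob (log2 -0.08, adjusted p = 0.885). With single libraries left out, the JHU083 changes against Control ran from -1.61 to -1.07 in Apoa1 and from -2.38 to -1.40 in Apob. The largest fall of both was without JHU083 replicate 3 (edgeR adjusted p = 0.00551 and 0.000728), the library whose Apoa4 level was part of the choice of genes. Over all alternatives, the highest adjusted p was 0.0371 in Apoa1 and 0.0451 in Apob.

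Apoa4 (chromosome 9, 46240696 to 46243459) had 2.78, 2.13 and 1.55 FPKM in WGFT17, 2.09, 1.00 and 8.31 FPKM in JHU083 and 14.3, 14.1 and 13.1 FPKM in Control. Its highest JHU083 library was 8.31 times its lowest, against 1.79 times in WGFT17 and 1.09 times in Control. JHU083 replicate 3 stood at 60.1% of the Control mean and JHU083 replicates 1 and 2 at 15.1% and 7.23%, within or below the WGFT17 range of 11.2% to 20.1%. At about 4 expected counts per read pair, the 3 JHU083 values rest on about 61, 32 and 240 pairs, with 95% exact Poisson intervals of 1.60 to 2.69, 0.684 to 1.41 and 7.29 to 9.43 FPKM that cover counting error only. Since this spread is why Apoa4 was chosen, the intervals are given as a description of depth.

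Apoa2 and Apoh behaved differently from Apoa4. Apoa2 (chromosome 1, 171225054 to 171226379) had 17.02, 17.97 and 11.24 FPKM in WGFT17, 15.6, 7.37 and 7.92 FPKM in JHU083 and 15.1, 14.7 and 13.1 FPKM in Control. WGFT17 replicates 1 and 2 and JHU083 replicate 1 were above all Control libraries, and the other 3 drug-treated libraries were below them. No change was detected with edgeR in JHU083 against Control (log2 -0.57, SE 0.27, adjusted p = 0.148) or in WGFT17 against Control (log2 -0.0009, SE 0.27, adjusted p = 0.998). Without JHU083 replicate 1, the first was -0.99 (adjusted p = 0.00974) and WGFT17 lay above JHU083 by 0.99 (adjusted p = 0.0029).

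Apoh (chromosome 11, 108343354 to 108414396) had 5.09, 6.45 and 3.07 FPKM in WGFT17, 5.44, 2.1 and 3.44 FPKM in JHU083 and 5.02, 5.14 and 4.12 FPKM in Control. Its highest and lowest libraries were both drug-treated, and the groups overlapped. The log2 change was -0.48 in JHU083 against Control (SE 0.32, edgeR adjusted p = 0.306) and -0.07 in WGFT17 against Control (SE 0.32, adjusted p = 0.857).

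Counted over the 7 genes other than Apoa4, edgeR called 0 higher and 3 lower in JHU083 against Control, where 24.0% of all tested genes were called, 12.5% as lower. In WGFT17 against Control, 0 were higher and 3 lower, where 58.0% of all tested genes were called, 30.0% as lower. In both comparisons the 3 were Apoc2, Apoa1 and Apob; the comparisons share the Control libraries. Between WGFT17 and JHU083, 0 of 7 were called, 0 had an unadjusted p under 0.05, and DESeq2 also called 0, where edgeR called 44.7% of all tested genes. For the same 7 genes, FPKM of the groups did not overlap for 2 in JHU083 against Control, namely Apoa1 and Apob, both lower (12.4% of tested genes were lower in this way, and 31.3% higher). In WGFT17 against Control they did not overlap for 4, with Apoe higher (45.0% of tested genes) and Apoc2, Apoa1 and Apob lower (28.2%). In WGFT17 against JHU083 the groups overlapped for all 7, where 27.4% of tested genes were higher without overlap and 25.9% lower.

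**Figure D3:**
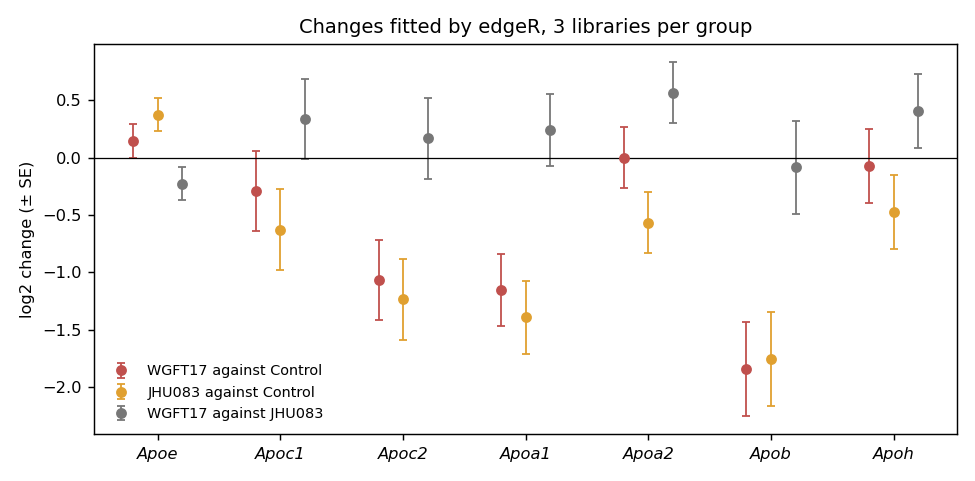
Log2 change with its SE for the 7 genes other than Apoa4, from edgeR with 3 libraries per group, for WGFT17 against Control (red), JHU083 against Control (yellow) and WGFT17 against JHU083 (grey). Apoc2, Apoa1 and Apob lie between -1.84 and -1.07 in both comparisons with Control.

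Set against Apoe in the same library, the 5 liver-type genes together were a small fraction. Their summed FPKM were 45.8, 46.2 and 26.8 in WGFT17, 40.9, 17.6 and 38.8 in JHU083 and 72.5, 71.9 and 64.8 in Control. The ratio of Apoe to this sum was 130, 142 and 216 in WGFT17, 198, 457 and 131 in JHU083 and 66.7, 70.5 and 83.8 in Control. Every drug-treated library thus had a higher ratio than every Control library, and the ratio was highest in JHU083 replicate 2. Both terms moved in JHU083 replicates 1 and 2, where Apoe was high and the liver-type sum low, whereas in JHU083 replicate 3 Apoe was at its Control level and the liver-type sum was below it. These ratios are a description, since this contrast was part of why the genes were chosen.

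Other hepatocyte transcripts were present in every library, and many were lower in both drug groups than in Control, as Apoa1, Apoa4 and Apob were. Apoa2 and Apoh were not called in either comparison with Control when all libraries were fitted. All 40 genes of a liver list without apolipoproteins were above 0 in all 9 libraries. With Trf left out, a transferrin gene that macrophages also express, their summed CPM were 502 to 1050 in WGFT17, 380 to 1140 in JHU083 and 1950 to 2190 in Control. Alb, which encodes serum albumin, had 93.8, 105 and 34.1 FPKM in WGFT17, 53.6, 24.7 and 124 FPKM in JHU083 and 249, 246 and 226 FPKM in Control. JHU083 replicate 2 was the lowest of the 9 libraries in all 5 liver-type apolipoprotein genes, in 36 of the 40 liver genes (90.0%) and in 6.85% of all tested genes. WGFT17 replicate 3 was the lowest WGFT17 library in all 5, in 40 of 40 liver genes and in 31.0% of all tested genes.

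Of the 38 tested liver genes, edgeR called 30 lower and 0 higher in JHU083 against Control, where 12.5% of all tested genes were lower, while 8 were not called. Their median log2 change was -1.28, against 0.0037 over all tested genes. In WGFT17 against Control, 2 were called higher, 26 lower and 10 in neither direction, where 28.0% of all tested genes were higher and 30.0% lower, and the median log2 change was -1.10. Hp, the haptoglobin gene, fell by 1.17 on the log2 scale in JHU083 (adjusted p = 0.00291) and by 1.92 in WGFT17 (adjusted p = 1.17e-05), and Itih2, an inter-alpha-trypsin inhibitor chain, fell by 1.36 in JHU083 (adjusted p = 0.00381). The 2 higher genes, Mup3 and Mup20, belong to the major urinary proteins, a family of close copies between which reads are hard to place. The same limit holds for the family Serpina1a to Serpina1e, all of which were among the genes called lower in JHU083. In WGFT17, Serpina1a, Serpina1b and Serpina1e were called lower, and Serpina1c and Serpina1d were not called. Mup3 rose by 1.44 (adjusted p = 0.0118) and Mup20 by 1.28 (adjusted p = 0.0235) in WGFT17 against Control. Leaving out WGFT17 replicate 1 ended both calls, leaving out Control replicate 1, Control replicate 2 or WGFT17 replicate 2 left 1, and without Control replicate 2 the JHU083 comparison had 17 lower liver genes.

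Transcription factors that define hepatocytes were at low levels, with 8 genes that summed to 3.33 to 5.45 CPM in WGFT17, 2.29 to 4.86 CPM in JHU083 and 9.27 to 10.2 CPM in Control. Hnf4a had 0.71, 0.75 and 0.32 FPKM in WGFT17, 0.48, 0.22 and 0.57 FPKM in JHU083 and 1.24, 1.15 and 1.17 FPKM in Control, and the other factors of the list were at most 0.47 FPKM. Of 12 enterocyte genes in the table, Anpep and Dgat1 were above 1 FPKM, the other 10 were below it in every library, and Fabp2 was at most 0.70 FPKM. Afp, a marker of fetal liver and yolk sac, was at most 0.41 FPKM, with means of 0.38 FPKM in WGFT17 and 0.24 FPKM in Control. The 8 yolk sac genes with it summed to 3.43 to 5.00 CPM in WGFT17, 12.4 to 16.9 CPM in JHU083 and 19.8 to 41.3 CPM in Control. H19, the 1 tested gene of these, averaged 0.107, 2.90 and 6.34 FPKM in the same groups. It fell by 5.91 on the log2 scale in WGFT17 against Control (edgeR adjusted p = 7.65e-07). Igf2 averaged 0.06, 0.617 and 1.18 FPKM, so these 2 genes moved against Afp. The part of hepatocyte RNA in the levels of these apolipoprotein genes was not tested.

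Some proportions between liver-type genes separated the libraries into 2 sets of values, and others did not. The ratio of Apoh to Apoa2 overlapped between all groups, at 0.273 to 0.359 in WGFT17, 0.285 to 0.434 in JHU083 and 0.315 to 0.349 in Control. The FPKM ratio of Apoa4 to Apoa2 was 0.163, 0.119 and 0.138 in WGFT17, 0.134, 0.136 and 1.05 in JHU083 and 0.946, 0.959 and 1.00 in Control. Thus JHU083 replicate 3 lay with the Control libraries and JHU083 replicates 1 and 2 with the WGFT17 libraries, with no library between 0.163 and 0.946. Apoa4 was chosen for its spread between the JHU083 replicates. The place of JHU083 replicate 3 in any ratio with Apoa4 follows in part from that choice and is a description. Relative to Alb, Apoa2 was at 18.2%, 17.1% and 33.0% in WGFT17, 29.2%, 29.9% and 6.38% in JHU083 and 6.08%, 6.00% and 5.77% in Control. Relative to Alb, Apoa4 was at 2.96%, 2.03% and 4.55% in WGFT17, 3.9%, 4.06% and 6.69% in JHU083 and 5.75%, 5.75% and 5.78% in Control. By both measures JHU083 replicate 3 was the nearest of the 6 drug-treated libraries to Control, although its Alb level was 51.7% of the Control mean. Apoc1 relative to Alb likewise was 5.3% to 8.48% in WGFT17, 9.97%, 7.34% and 3.05% in JHU083 and 2.16% to 2.29% in Control. Apob relative to Alb differed less, at 1.22% to 1.79% in WGFT17, 1.57% to 2.03% in JHU083 and 1.42% to 1.56% in Control.

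**Figure D4:**
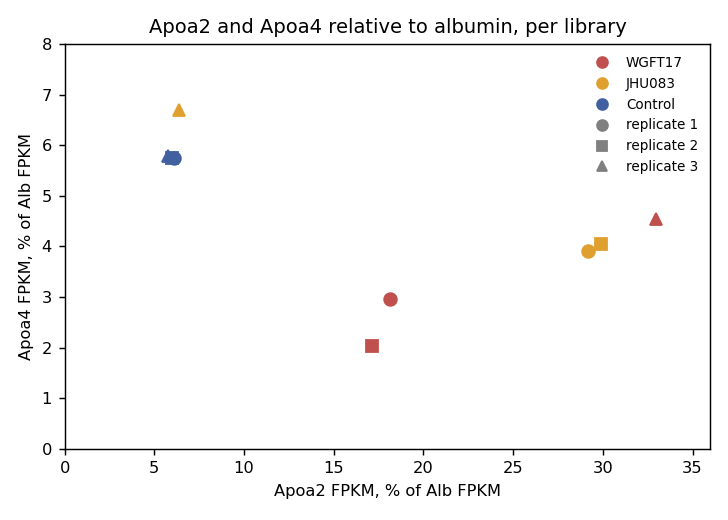
Apoa4 against Apoa2, each as a percentage of the Alb FPKM of the same library, with 1 point per library. Control and JHU083 replicate 3 sit at 5.77% to 6.38% on the Apoa2 axis, and the other 5 libraries at 17.1% to 33.0%.

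A few liver genes were not below Control in WGFT17 replicates 1 and 2, as was so for Apoa2 and Apoh. In WGFT17 replicates 1 and 2, 8 of the 40 liver genes were at or above the lowest Control library, among them Ttr, Fetub, Serpina1d, Serpina3k, Mup3, Mup20 and Tat. These were picked out after their values were seen, and over all tested genes the share was 62.1%. Serpina3k, for example, had 30.9, 30.6 and 16.6 FPKM in WGFT17, 23.7, 11.4 and 14.9 FPKM in JHU083 and 27.1, 25.1 and 24.2 FPKM in Control.

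**Figure D5:**
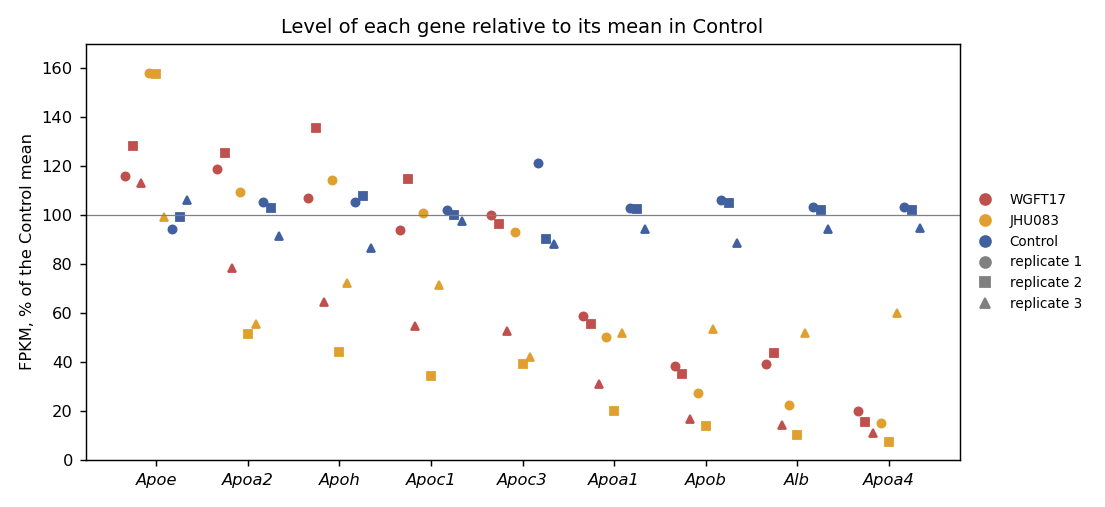
FPKM of 7 apolipoprotein genes described above, Apoc3 and Alb in each library, as a percentage of the Control mean of the gene, with 1 point per library. In Apoa2 and Apoh, WGFT17 replicates 1 and 2 lie above 100%, and Apoa4 at the right lies at 11.2% to 20.1% in WGFT17.

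Neighbouring genes on chromosome 9 did not share 1 pattern. Apoa1, Apoc3, Apoa4 and Apoa5 lie within 46228580 to 46271919. Apoc3, which encodes an inhibitor of triglyceride clearance, had 4.46, 4.29 and 2.35 FPKM in WGFT17, 4.15, 1.74 and 1.88 FPKM in JHU083 and 5.41, 4.03 and 3.93 FPKM in Control. JHU083 replicates 2 and 3 were its lowest libraries, as in Apoa2, whereas in its neighbour Apoa4 JHU083 replicate 3 was the highest drug-treated library. No change was detected in JHU083 (adjusted p = 0.0851) or WGFT17 (edgeR adjusted p = 0.354) against Control. Apoa5, which encodes a protein that promotes triglyceride clearance, fell by 0.96 on the log2 scale in JHU083 (adjusted p = 0.0315) and by 0.90 in WGFT17 (adjusted p = 0.0182).

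By likeness over the 9 libraries, the genes nearest to Apoa4 were Saa2, Rpl10-ps5, Apon, Saa1 and Itih3, with Pearson's r of log2(FPKM + 0.1) between 0.98 and 0.99. Saa1 and Saa2 encode serum amyloid A proteins of the acute phase and are near-identical copies, so their reads are hard to tell apart. Saa2 had 3.75, 2.85 and 1.93 FPKM in WGFT17, 2.99, 1.60 and 7.22 FPKM in JHU083 and 11.0, 9.77 and 8.64 FPKM in Control. As in Apoa4, JHU083 replicate 3 lay between the other drug-treated libraries and Control. Rpl10-ps5 is a pseudogene of a ribosomal protein gene, so its reads may come from other copies. Those nearest to Apoe were Ehmt2, Arhgef1, Aatk, Arhgap45 and Trim65, with r between 0.96 and 0.98. Ehmt2, which encodes a histone methyltransferase, had 29.1, 29.9 and 29.1 FPKM in WGFT17, 34.4, 33.9 and 25.9 FPKM in JHU083 and 25.8, 27.0 and 26.6 FPKM in Control. JHU083 replicates 1 and 2 were its 2 highest libraries, as in Apoe. These r values run over libraries of 3 groups and describe the order of the libraries only. The genes were picked for this likeness, so the order that Saa2 shares with Apoa4, and Ehmt2 with Apoe, follows from that choice.

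Of 22 further apolipoprotein and related genes, 11 were tested. In JHU083 against Control, edgeR called 1 higher, 5 lower and 5 in neither direction, where 12.5% of all tested genes were lower, and their median log2 change was -0.88, against 0.0037 over all tested genes. In WGFT17 against Control, 1 was called higher, 8 lower and 2 in neither direction, where 30.0% of all tested genes were lower, and the median was -1.30, against 0.0044 over all tested genes. The higher gene in both was Apobr, a macrophage receptor for apoB-48, which had 32.6, 31.8 and 32.7 FPKM in WGFT17, 36.0, 34.7 and 28.8 FPKM in JHU083 and 24.7, 26.2 and 22.1 FPKM in Control. Apobr rose by 0.35 on the log2 scale in JHU083 (adjusted p = 0.0102) and by 0.30 in WGFT17 (adjusted p = 0.007). Clu, which encodes clusterin, fell by 0.82 in JHU083 (adjusted p = 0.0181) and by 1.30 in WGFT17 (adjusted p = 0.000357). Saa3, a serum amyloid A gene that macrophages express, fell by 1.61 in WGFT17 against Control (adjusted p = 0.000719) and by 0.99 in WGFT17 against JHU083 (adjusted p = 0.0168). The 5 lower in JHU083 numbered 0 when Control replicate 2 was left out, 1 without Control replicate 1 or 3, 2 without JHU083 replicate 2, and 3 without JHU083 replicate 1 or WGFT17 replicate 2.

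LXR, its partners and genes of cholesterol efflux were measured for the setting of Apoe, and all 21 were tested. In WGFT17 against Control, 12 were higher (28.0% of all tested genes were), 5 lower (30.0% of all tested genes) and 4 in neither direction. The median log2 change was 0.29, against 0.0044 over all tested genes. In JHU083 against Control, 6 were higher (11.5% of all tested genes), 5 lower (12.5% of all tested genes) and 10 in neither direction. The median was 0.09, against 0.0037 over all tested genes. Nr1h3, the gene of LXR-alpha, had 7.74, 8.45 and 7.20 FPKM in WGFT17, 9.00, 8.83 and 6.95 FPKM in JHU083 and 5.40, 4.92 and 6.72 FPKM in Control. All drug-treated libraries were above Control, and Nr1h3 rose by 0.35 on the log2 scale in WGFT17 (edgeR adjusted p = 0.046) and by 0.44 in JHU083 (adjusted p = 0.0361). Mylip, which encodes a ubiquitin ligase, rose by 0.61 in WGFT17 (adjusted p = 4.72e-05) and by 0.65 in JHU083 (adjusted p = 0.000723).

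Other genes of the list moved in both directions. Abca1, which encodes the main cholesterol exporter, had 25.3, 29.9 and 27.0 FPKM in WGFT17, 32.2, 33.2 and 30.6 FPKM in JHU083 and 28.8, 27.6 and 28.4 FPKM in Control. No change against Control was detected (log2 -0.15, adjusted p = 0.0622 in WGFT17; log2 0.09, adjusted p = 0.357 in JHU083), and WGFT17 was lower than JHU083 by the edgeR test (log2 -0.24, adjusted p = 0.0106). The 5 lower genes were the same in both comparisons with Control, namely Scd1, Scd2, Lpcat3, Nr1d1 and Pltp. Scd2, a fatty acid desaturase, fell by 2.54 on the log2 scale in WGFT17 against Control (adjusted p = 7.09e-10) and by 0.58 in JHU083 (adjusted p = 0.00101). Scd1 fell by 1.52 in WGFT17 and 0.52 in JHU083 (edgeR adjusted p = 5.33e-06 and 0.0232). Lpcat3 fell by 0.56 and 0.30 and Pltp by 0.72 and 0.29 in the same order. Smpdl3a, a phosphodiesterase, rose by 1.28 in WGFT17 against Control (adjusted p = 2.6e-08). Nceh1, which encodes a cholesterol ester hydrolase, rose by 0.69 in WGFT17 (adjusted p = 1.75e-07) and by 0.34 in JHU083 (adjusted p = 0.00101). Without JHU083 replicate 3, the list had 10 higher genes in JHU083 against Control and 9 lower in WGFT17 against Control, and without Control replicate 2 it had 3 lower in JHU083 against Control.

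Of 16 tested receptors for apolipoprotein particles, edgeR called 7 higher, 5 lower and 4 in neither direction in WGFT17 against Control, and 2 higher, 3 lower and 11 in neither direction in JHU083 against Control. Over all tested genes, 28.0% were higher and 30.0% lower in WGFT17 and 11.5% higher and 12.5% lower in JHU083, so that the lower receptors in WGFT17 and the receptors called in JHU083 were near these shares. Vldlr, a receptor that binds apoE, rose by 0.73 on the log2 scale in WGFT17 against Control (adjusted p = 3.2e-05), and Msr1, a scavenger receptor of modified LDL, rose by 0.92 in WGFT17 (adjusted p = 1.4e-06) and by 0.47 in JHU083 (edgeR adjusted p = 0.00212). The syndecan genes Sdc1 and Sdc4, whose proteins bind apoE through heparan sulfate, fell by 1.60 and 1.07 in WGFT17 against Control (adjusted p = 2.65e-08 and 1.98e-08). Scarb2, a lysosomal receptor, rose by 0.25 in JHU083 against Control (adjusted p = 0.00605). The JHU083 count of higher receptors depended on scaling, with 6 when library totals alone were used and 4 without JHU083 replicate 3, and the lower receptors numbered 1 without Control replicate 2 and 2 with any other single library left out.

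Of 20 genes that process or assemble lipoproteins, 11 were tested. The lists overlap: Lpl and Pltp are also among the LXR and efflux genes, and Trem2 is among both the receptors and the macrophage markers. In WGFT17 against Control, edgeR called 6 higher, 3 lower and 2 in neither direction; in JHU083 against Control it called 3 higher, 2 lower and 6 in neither direction. The shares over all tested genes were again 28.0% higher and 30.0% lower in WGFT17 and 11.5% higher and 12.5% lower in JHU083, and the lower processing genes in WGFT17 were near them. Lpl, the lipoprotein lipase that Apoc2 activates, had 206, 189 and 211 FPKM in WGFT17, 147, 166 and 162 FPKM in JHU083 and 111, 99.4 and 117 FPKM in Control. The groups did not overlap and WGFT17 was highest and Control lowest, the reverse of the order of Apoc2 summed with Gm44805. Lpl rose by 0.78 on the log2 scale in WGFT17 against Control (adjusted p = 6.72e-06), by 0.44 in JHU083 against Control (adjusted p = 0.00319) and by 0.34 in WGFT17 against JHU083 (adjusted p = 0.00413). P4hb, which encodes a disulfide isomerase that is also a subunit of the transfer complex loading lipid on apoB, fell by 0.98 in WGFT17 against Control (adjusted p = 1.33e-08) and by 0.36 in JHU083 (adjusted p = 0.000932). Mttp, the other subunit of that complex, stayed below 1 FPKM in every library. Mia2, a factor for the export of large cargo from the endoplasmic reticulum, rose by 0.76 in WGFT17 against Control (adjusted p = 3.85e-06). The 2 lower genes in JHU083 numbered 1 without Control replicate 2 or 3.

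Between WGFT17 and JHU083 the same lists moved as follows. Of the LXR and efflux genes, 8 were higher and 7 lower in WGFT17, of the receptors 5 and 5, of the processing genes 5 and 2, and of the further apolipoprotein genes 0 and 1, where 20.4% of all tested genes were higher and 24.4% lower. Of the 38 liver genes, 2 were higher and 2 lower, the lower being Trf (log2 -0.79, edgeR adjusted p = 2.5e-05) and Hp (log2 -0.75, adjusted p = 0.00982). Without WGFT17 replicate 3 there were 10 higher liver genes, without JHU083 replicate 1 there were 8, and without JHU083 replicate 2, WGFT17 replicate 1 or WGFT17 replicate 2 there was 1. Without JHU083 replicate 2 there were 4 lower liver genes. Without WGFT17 replicate 1, the LXR and efflux genes numbered 5 higher and 4 lower. The further apolipoprotein genes lower in WGFT17 numbered 3 without JHU083 replicate 2 and 0 without JHU083 replicate 1, WGFT17 replicate 2 or WGFT17 replicate 3. Dendritic cell genes summed to 132 to 156 CPM in WGFT17, 399 to 448 CPM in JHU083 and 410 to 587 CPM in Control, and neutrophil genes to 15.8 to 25.4, 39.9 to 47.9 and 72.6 to 81.1 CPM in the same groups. The 4 tested dendritic cell genes, Itgax, H2-Aa, H2-Ab1 and Cd74, were lower in WGFT17 against Control. Among the untested ones, Ccr7 went the other way, with means of 0.693, 0.567 and 0.0733 FPKM in WGFT17, JHU083 and Control. Zbtb46 was level at 0.193, 0.203 and 0.207 FPKM, and Ciita was lower in WGFT17. Stromal and endothelial genes summed to 2740 to 2930 CPM in WGFT17, 10200 to 11900 CPM in JHU083 and 15500 to 16600 CPM in Control, and the most abundant of them were Acta2, Col1a1 and Col1a2. Of the 11 tested, 10 were lower and 1 higher in WGFT17 against Control (30.0% and 28.0% of all tested genes). The higher gene was the endothelial Vwf (log2 1.55, edgeR adjusted p = 4.56e-08). In JHU083 against Control 6 were lower (12.5% of all tested genes) and 5 were not called. The part of these cell types in the levels above was not tested.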

How the data were processed

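Poly(A) RNA of 9 libraries was sequenced as stranded read pairs, per the labels' protocols. Of the tools listed in the submitters' processing notes, with no roles, StringTie was 2.1.6, HISAT2 was 2.2.1 and cutadapt was 1.9; edgeR, DESeq2 and the build mm9 are also listed. The table gives, per the file headers, FPKM made by the authors and a count per gene and library. These deposited counts are expected counts: whole, not scaled to depth, with an excess at 4 and 8, so that about 4 stand for 1 read pair; no rounding was needed. Coordinates equalled GRCm38 (GENCODE M21) for 87.1% of matched genes, members included, and are given in GRCm38.

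Samples were grouped by title. Genes with a mean of at least 1 FPKM were tested with edgeR 4.0.16 (quasi-likelihood, TMM, all 9 libraries in 1 fit, R 4.3.3), adjusted by Benjamini-Hochberg and called at an adjusted p under 0.05. The SE is the change divided by the root of the F statistic. limma 3.58.1 (pseudocounts 1 and 0.1), DESeq2 1.42.0, other scalings and filters, counts divided by 4, fits of 2 groups, a replicate block and leaving out each library were alternatives; list counts under these, and the sum of Apoc2 and Gm44805, were added after the data were seen. The method was tested on simulated data. Members and lists were chosen with earlier results of these data known. Named were all members, the 2 genes with the smallest adjusted p of a list in a comparison, and the 5 genes most like Apoe and Apoa4; the others named, such as Nr1h3, Abca1, Vldlr, Hnf4a, Fabp2, Afp, Mttp, Apoa5, Apoc3, Mup20 and Serpina3k, were chosen for their known role or after their values were seen. Not all genes the rule picks from the lists are described. Some genes are not reported here.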

Additional observations from a re-analysis of the deposited data

How the results depend on the processing

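The low genes rest on few read pairs: in single libraries about 24 for Apoc1 and 32 for Apoc2 and Apoa4. Numbers of called genes moved with the filter: at a mean of at least 5 FPKM, with fewer genes tested, 4151 were called in WGFT17 against Control and 3305 in WGFT17 against JHU083. With no minimum, 1891, 7912 and 5916 were called in JHU083 against Control, WGFT17 against Control and WGFT17 against JHU083. With single libraries left out, the counts were 1534 to 3731, 6007 to 7598 and 4471 to 5713 in the same order; Control replicates 2 and 3 gave 1534 and 1568 in JHU083 against Control. In that comparison 47.7% of calls were higher, against 58.7% with library totals and 71.6% with limma on log2(FPKM + 1), where the median of all genes was 0.08.

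The deviations of same-numbered libraries correlated at -0.03 to 0.16. Libraries with different numbers were not compared in this way, so these values cannot tell whether the replicate numbers pair the libraries. With the replicate block 2330, 6530 and 4907 genes were called in the order above. In that fit the Apoc2 change in JHU083 against Control (-1.27) had an adjusted p of 0.0537 with edgeR.

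Apoa1 and Apob kept their calls against Control in every alternative that tested them; Apob, Apoc1 and Apoh were not tested at a mean of at least 5 FPKM. The sign of some small changes turned. Apoa2 in WGFT17 against Control was 0.0161 with library totals, 0.0769 with limma at pseudocount 1 and 0.08 at 0.1, 0.0275 with no minimum, and -0.13 to 0.18 with single libraries left out; Apoh there was -0.33 to 0.17. In WGFT17 against JHU083, the ranges with single libraries left out were -0.0865 to 0.64 for Apoc2, -0.0883 to 0.48 for Apoa1, -0.44 to 0.54 for Apob and -1.29 to 0.47 for Apoa4 (0.47 without JHU083 replicate 3), Apob was 0.041 with limma at pseudocount 0.1, and the sum of Apoc2 and Gm44805 gave -0.70. The causes were not tested.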
